A study of Homo sapiens with 4 samples.

Results

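The genes described here copy the genome and decide when that copying starts. They are 35 named genes of DNA replication and of the G1 to S transition, the step at which a resting or growing cell commits to making DNA. Members were taken by name with no cut on measured values, though earlier results of these data were known. Every probe set of the array whose annotation names 1 member gene alone was used. This found 50 probe sets of 34 genes, among 11963 genes so named in the whole table. UHRF1, which guides maintenance of DNA methylation, had no such probe set, so its RNA was not analysed here and it enters only the account of promoters. The measurements come from LNCaP cells, a line from a human prostate cancer that responds to androgen, kept in 10% fetal bovine serum and transiently transfected with Lipofectamine. There were 2 samples given a vector that expresses MED1 (part of Mediator, the bridge from transcription factors to RNA polymerase II) and 2 given the empty vector, all in one cell line that carries no other change named in the labels. RNA was taken after 24 hours and hybridised to an Affymetrix array. The share of cells that took up either vector is not given in the sources used here, and no label says whether the duplicates were separate cultures, so the p-values rest on a spread that may be technical.

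As background, a cell may copy its DNA once per cycle. In G1, the origin recognition complex, CDC6 and CDT1 load the MCM2 to MCM7 helicase on DNA, which is called licensing. Cyclin D and cyclin E kinases then release E2F transcription factors from the RB protein, and E2F turns on many of these same genes. At the onset of S phase, CDC45 and the GINS complex switch the helicase on, and polymerases, the PCNA sliding clamp and its loader, and enzymes that make deoxynucleotides carry the forks forward. RNA from a whole culture cannot tell apart fewer cells in S phase and less RNA per cell.

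Of the 2 probe sets for MED1 itself, 1 rose with the vector, with MAS5 signals of 559 and 807 with MED1 and 292 and 315 with the empty vector (log2 fold change 1.11 ± 0.16, SE; limma, Benjamini-Hochberg adjusted p = 0.0320). That call was lost when either empty vector sample was left out (adjusted p = 0.0607 and 0.0869), with no filter (0.381) and with no variance trend (0.358). The other probe set read 1172 and 1074 against 1097 and 1011 and did not pass (adjusted p = 0.83). The median signal of an array was 77.0 to 82.7. The luminal prostate markers were present: all 8 measured genes of 10 listed passed the filter on dim probe sets, and their summed signal was 22311 to 23703 in the MED1 samples and 23158 to 25427 in the empty vector samples. Of 4 measured leukocyte genes 0 passed the filter (highest signal 38.9), and 1 of 4 endothelial, 2 of 6 fibroblast and 1 of 2 basal prostate genes did, where the highest signal was 156.5.

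Most replication genes gave signals well above the filter in both groups, and none differed between them past the threshold. Of the 50 probe sets, 47 passed the filter, which stand for 32 genes, with signals of 57.5 to 7953. Signals of different probe sets depend on their probes, so they give no order of abundance among genes. With MED1, 0 of the 47 rose and 0 fell (limma, Benjamini-Hochberg over all 13329 tested probe sets, threshold 0.05), where 0.293% of all tested probe sets passed. At an unadjusted p under 0.05 there were 5, or 10.6%, against 9.20% of all tested probe sets. Of the 5, 2 were higher, where 533 of all 13329 tested were, and 3 lower, where 693 (5.20%) were. These were RFC4, CDC6 and TK1, which read lower, and PCNA and CCNE1, which read higher.

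The log2 fold changes of the 47 ran from -0.35 for RFC4 to 0.36 for PCNA, and their median was -0.063, beside -0.016 over all tested probe sets. Values were negative for 31 of 47 (66.0%), against 53.5% of all tested. With each array centred on its own median signal, 25 of 47 (53.2%) were negative, against 41.5% of all tested, since centring moves every probe set up alike; with quantile normalization 31 of 47 were negative, against 50.3% of all tested. In 19 (40.4%) both MED1 samples lay beyond both empty vector samples, against 39.8% of all tested. Of these, 12 were lower with MED1, where the share over all tested was 22.6%, and 7 were higher, where it was 17.2%. The 95% intervals of limma, which are not adjusted for the number of members, lay within 2-fold for all 47 and within 1.5-fold for 40. The farthest bound was 1.74-fold, for a lower level of E2F1. Smaller differences than these intervals allow cannot be seen with 2 arrays a group.

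**Figure D1:**
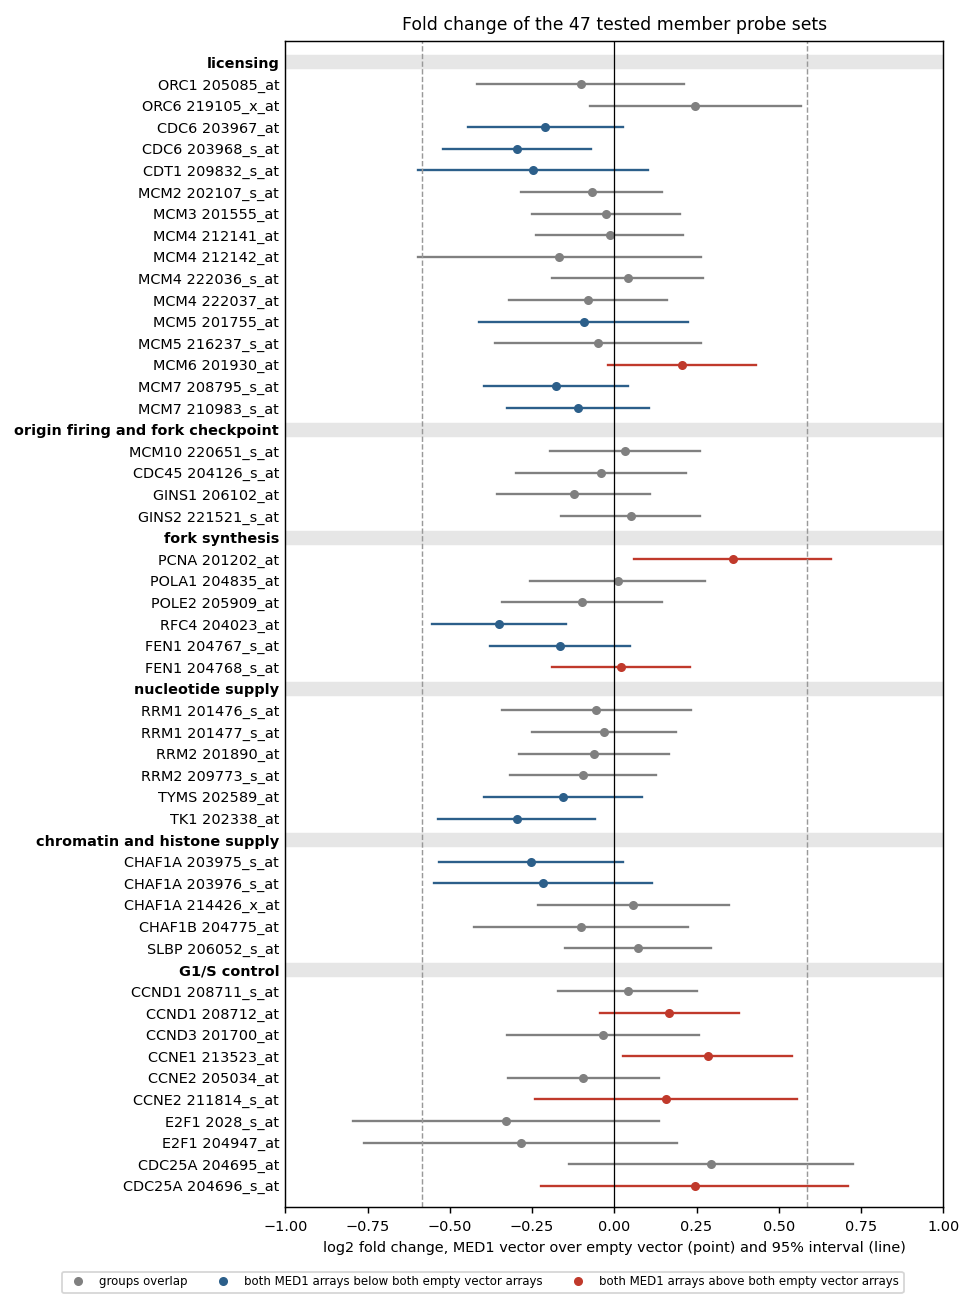
Log2 fold change of each tested member probe set, MED1 vector over empty vector (point), with its 95% interval from limma (line), by function. Dashed lines mark 1.5-fold and colour shows whether the 2 arrays of each group overlap; 40 of 47 intervals lie between the dashed lines, and RFC4 and PCNA sit at the ends.

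The median difference of the members varied with the samples set against each other; these pairings share samples, so they are no repeats of each other. Against empty vector replicate 1, the median log2 difference over the 47 was -0.092 for MED1 replicate 1 and -0.052 for MED1 replicate 2, beside -0.010 and -0.0099 over all tested probe sets. Against empty vector replicate 2 it was -0.025 and -0.014, beside -0.029 and -0.021 over all tested. The members thus lay below all tested in the first pairings and slightly above in the others. The empty vector samples differed from each other by 0.030 over the members (replicate 1 minus replicate 2) and -0.014 over all tested, and the MED1 samples by -0.012 and -0.0023. Single members were measured about as closely as other genes: the median gap between duplicates on the log2 scale was 0.10 in the MED1 pair and 0.15 in the empty vector pair, against 0.13 and 0.15 over all tested probe sets.

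**Figure D2:**
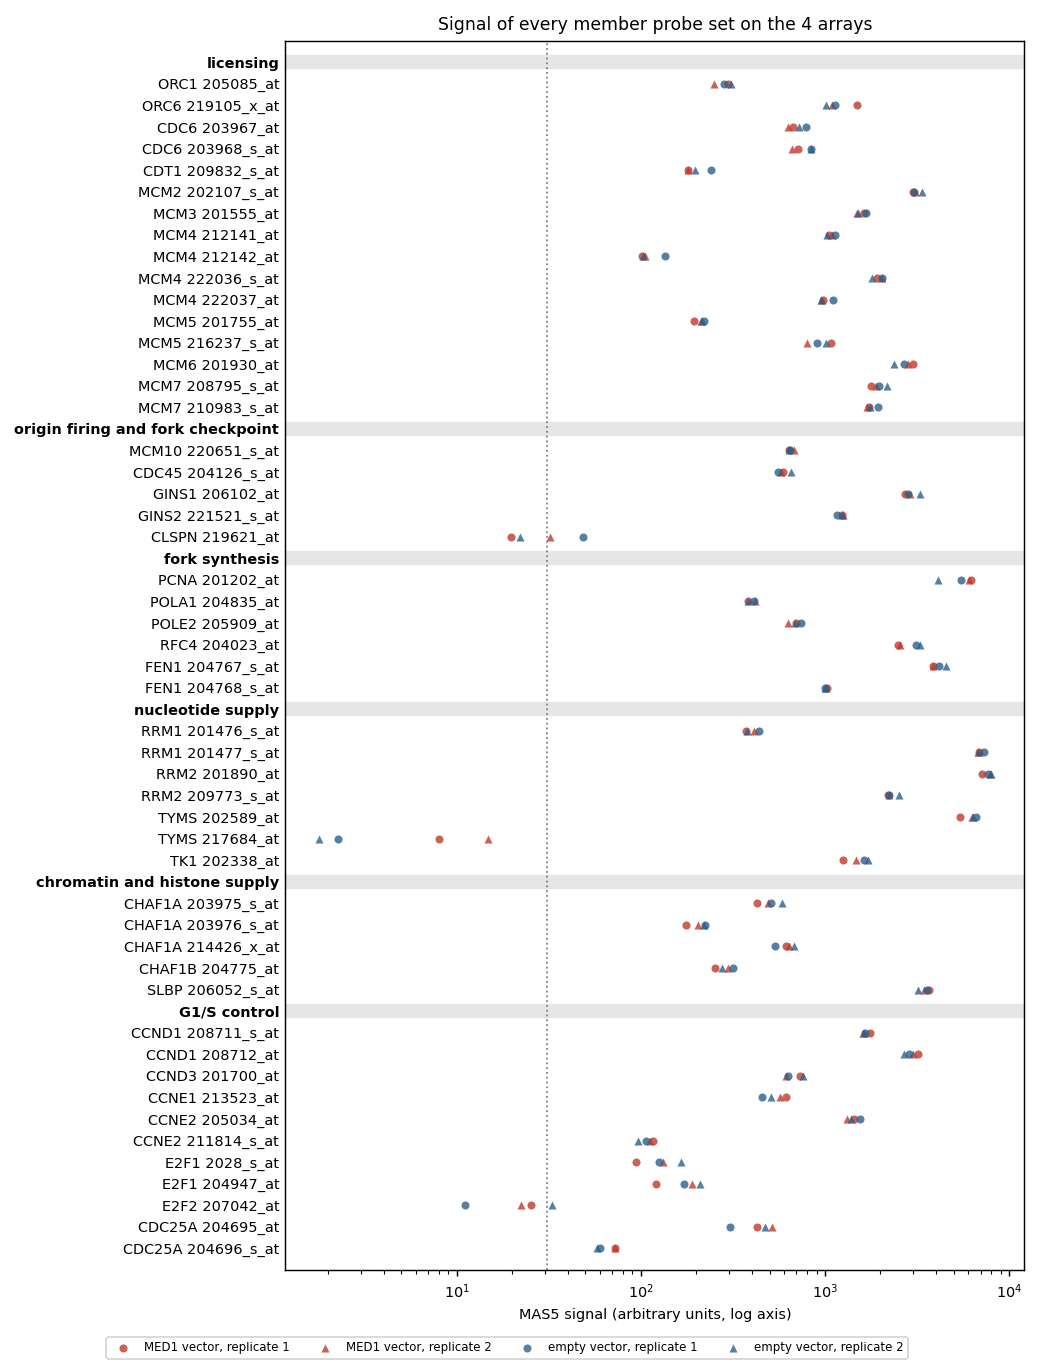
MAS5 signal (log axis) of all 50 member probe sets on each of the 4 arrays, by function, with MED1 samples in red and empty vector samples in blue. The dotted line is the filter level; CLSPN, E2F2 and 1 TYMS probe set have means under it, and all other points lie above it.

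Promoter sequences of the members were read as a description. E2F turns on many of these same genes, as stated above. A high share of E2F-type words is therefore not independent of how the list was chosen. RefSeq windows of GRCh38.p14, from 250 bases before to 50 after each annotated start, were at hand for 31 member genes in 42 windows; CCND1, CCNE2, MCM4 and MCM5 had none in that table. They were searched on both strands for the E2F-type words TTTCCCGC, TTTGGCGC, TTTCGCGC and TTTGCCGC. At least 1 was found in 18 of 42 windows (42.9%), against 3.31% of all 35116 windows, and in 17 of 31 genes (54.8%), against 3.99% of all genes in the table. Of the 25 matches, 17 began no more than 60 bases before the start. Matches on opposite strands can overlap, as in MCM2 and MCM6, where pairs of them share letters. The word CCAAT, the core of the site that the factor NF-Y binds, was in 66.7% of member windows and 34.6% of all. The word GGGCGG, known as the GC box, was in 81.0% and 45.0%. Among windows of protein-coding genes alone, the shares were 4.1% for E2F-type words, 34.7% for CCAAT and 56.3% for the GC box. By gene, the GC box was in 80.6% of members and 64.3% of protein-coding genes, and E2F-type words were in 5.4% of the latter. A match is a description of the letters and shows no binding. Only exact words were searched, so a window without a match is not shown to lack a site for E2F.

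By function, E2F-type words were found in 6 of 8 licensing genes with a window, 3 of 5 firing genes, 3 of 5 fork genes, 1 of 4 nucleotide genes, 1 of 4 chromatin genes and 3 of 5 G1/S genes. The tested members with a match had a median log2 fold change of -0.10 (18 probe sets of 14 genes), and those without it -0.054 (19 probe sets of 14 genes). Both sets ran over nearly the same range, -0.33 to 0.36 and -0.35 to 0.28, and the difference was not tested.

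The start regions of 4 members are shown, 2 that read lower and 2 that read higher, because these had the lowest unadjusted p in each direction; they were thus chosen by their values. Each runs from 170 bases before the annotated start to 30 after it, 5′ to 3′ on the gene's strand, with E2F-type words in capitals. They lie at chr3:186806453-186806652 (minus strand) for RFC4, chr17:40287709-40287908 (plus) for CDC6, chr20:5126593-5126792 (minus) for PCNA and chr19:29811821-29812020 (plus) for CCNE1, in GRCh38.p14.
RFC4: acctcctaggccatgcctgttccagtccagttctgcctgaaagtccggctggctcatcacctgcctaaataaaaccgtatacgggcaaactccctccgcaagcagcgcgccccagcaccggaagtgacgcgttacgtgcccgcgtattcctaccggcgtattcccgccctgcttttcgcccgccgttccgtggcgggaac
CDC6: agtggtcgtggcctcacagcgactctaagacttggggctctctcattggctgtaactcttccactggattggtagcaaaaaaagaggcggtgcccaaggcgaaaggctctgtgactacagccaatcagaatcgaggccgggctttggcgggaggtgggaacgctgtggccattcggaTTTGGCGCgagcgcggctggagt
PCNA: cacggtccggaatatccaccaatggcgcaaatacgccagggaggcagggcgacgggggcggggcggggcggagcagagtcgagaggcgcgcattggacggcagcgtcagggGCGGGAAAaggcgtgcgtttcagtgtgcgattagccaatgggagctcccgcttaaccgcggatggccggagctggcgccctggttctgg
CCNE1: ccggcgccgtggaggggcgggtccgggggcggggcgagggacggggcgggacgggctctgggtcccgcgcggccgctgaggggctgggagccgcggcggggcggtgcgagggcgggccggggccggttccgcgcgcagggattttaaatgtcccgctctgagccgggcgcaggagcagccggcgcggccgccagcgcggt
CDC6 has its word beginning 8 bases after the start, and PCNA on the other strand, beginning 59 bases before it. The RFC4 and CCNE1 stretches hold none of the 4 words. In the stretches shown, 1 of the pair in each direction thus has a word and the other has none. Where a gene has several annotated starts, the start with most E2F-type words is shown. The window of another PCNA start holds none of these words.

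**Figure D3:**
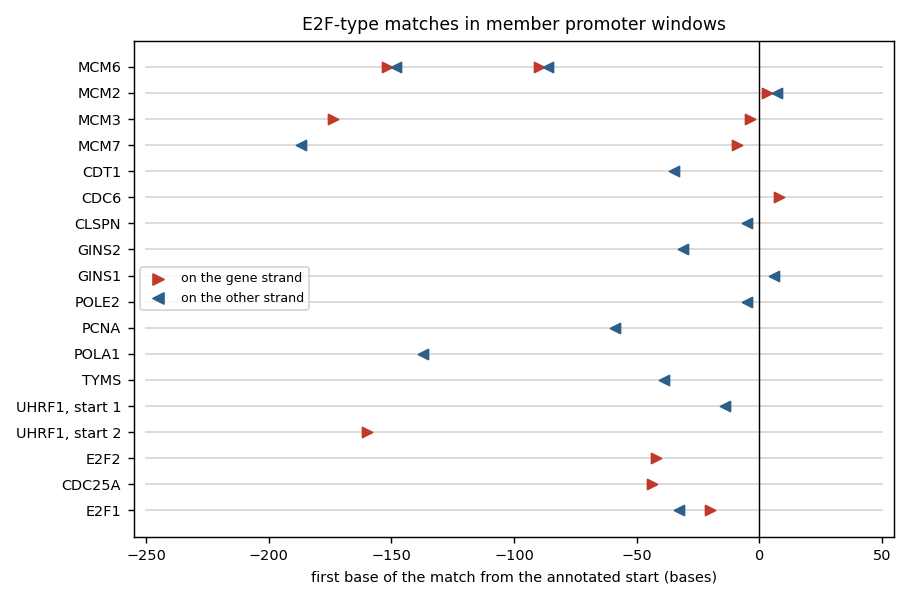
E2F-type matches in the member promoter windows that hold any, by distance of their first base from the annotated start (bases), with the direction of each triangle giving the strand. UHRF1 has 2 starts with a match; 17 of 25 matches lie from 60 bases before the start onwards.

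Among the licensing genes, 13 of 16 tested probe sets had negative values, against 53.5% of all tested, and none passed. Their median log2 fold change was -0.087, beside -0.016 over all tested. With arrays centred on their medians 10 of 16 were negative (41.5% of all tested) and the median was -0.035, beside 0.036 over all tested. With quantile normalization 13 of 16 were negative (50.3% of all tested) and the median was -0.073, beside -0.0012. In 6 of the 16 (37.5%) both MED1 samples were lower (22.6% of all tested) and in 1 both were higher (17.2% of all tested). The 6 include every tested probe set of CDC6 and of MCM7, and the 13 negative values hold several of MCM4 and MCM5 as well. Probe sets of the same gene are not independent, so these shares are not counts of genes. CDC6, which brings the helicase to the origin, read 711 and 658 with MED1 and 844 and 844 with the empty vector by one probe set. The empty vector samples were nearly equal and both MED1 samples lay below them, a level 1.23-fold lower (log2 fold change -0.30 ± 0.10; limma, Benjamini-Hochberg adjusted p = 0.431). Its second probe set read 674 and 632 against 790.1 and 725 and also kept the groups apart (-0.21 ± 0.10, adjusted p = 0.588). CDT1, the partner of CDC6 in loading, read 180.2 and 180.2 against 239.9 and 196 (-0.25 ± 0.15, adjusted p = 0.647); the MED1 samples were level with each other and the empty vector samples were not.

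The subunits of the MCM ring had values of both signs. MCM6 read 2996 and 2834 with MED1 and 2695 and 2366 with the empty vector, a level 1.15-fold higher with no overlap (0.21 ± 0.10; limma adjusted p = 0.584). MCM7 read lower on both probe sets, 1767 and 1892 against 1969 and 2176 on the first (-0.18 ± 0.10) and 1727 and 1689 against 1945 and 1748 on the other (-0.11 ± 0.10), with adjusted p of 0.608 and 0.763. In MCM2 (3021 and 3086 against 3048 and 3367) and MCM3 (1632 and 1496 against 1677 and 1511) the groups overlapped, with log2 fold changes of -0.069 and -0.026. MCM4 had 4 tested probe sets, which differed in sign, and the groups overlapped on each. They gave 0.040 ± 0.10 (1904 and 2052 against 2051 and 1800.4; limma adjusted p = 0.938) and -0.014 ± 0.10 (1045 and 1093 against 1136 and 1027; 0.982). Another gave -0.080 ± 0.11 (981 and 961 against 1111 and 949.6, limma adjusted p = 0.863). The last, with the lowest signals of the 4, gave -0.17 ± 0.19 (101 and 106 against 135 and 103, limma adjusted p = 0.834). MCM5 gave -0.094 and -0.049. The 95% intervals of the MCM2 to MCM7 probe sets, the MCM4 one of lowest signal apart (-0.60 to 0.26), all lay within 1.5-fold.

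The origin recognition subunits pointed apart. ORC1, the subunit that marks origins in G1, read 297 and 249.7 against 281 and 307 (-0.10 ± 0.14). ORC6 read 1489 and 1088 against 1129.9 and 1014 (0.25 ± 0.14), where MED1 replicate 1 alone stood above the other 3 samples; its suffix _x_at marks probes that may match further transcripts. The groups overlapped in both genes (limma adjusted p = 0.866 and 0.62).

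In each of the 4 tested probe sets of origin firing genes the groups overlapped, and their median was -0.0047. GINS1, a subunit of the GINS complex of the active helicase, read 2723 and 2879.7 with MED1 and 2829 and 3294 with the empty vector (-0.12 ± 0.10; limma adjusted p = 0.753). Its partner GINS2 read 1229 and 1259 against 1165 and 1241 (0.049 ± 0.094). CDC45, the third part of the active helicase, read 594 and 576 against 557 and 651 (-0.042), and MCM10, which helps to start the fork, 641 and 674 against 648 and 638 (0.032). The 4 intervals ran from -0.36 to 0.26 at their widest. CLSPN, the claspin checkpoint adaptor, read 19.8 and 32.0 against 48.5 and 22.1; it lay under the filter and was not tested.

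The largest differences in both directions were at the fork, between the clamp and its loader. RFC4, a subunit of replication factor C, which opens the PCNA ring and places it on DNA, read 2490.1 and 2542 with MED1 and 3130.3 and 3293 with the empty vector. Each pair was tight and the groups were apart, a level 1.27-fold lower with MED1 (-0.35 ± 0.090, 95% interval -0.55 to -0.15; limma, unadjusted p = 0.00354, adjusted p = 0.269). PCNA, the clamp itself, read 6174 and 6070.2 with MED1 and 5508 and 4126 with the empty vector, a level 1.28-fold higher (0.36 ± 0.13, interval 0.060 to 0.66; adjusted p = 0.459). The MED1 samples agreed closely, while empty vector replicate 2 was well below replicate 1: without it, the log2 fold change of PCNA was 0.15, and without replicate 1 it was 0.57. That of RFC4 stayed at -0.39 to -0.31 with any 1 sample left out.

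The other fork members were closer to level. FEN1, the nuclease that trims Okazaki fragments, gave -0.17 ± 0.094 on one probe set (3882 and 3843 against 4154 and 4524) and 0.022 ± 0.093 on the other (1027 and 1008 against 1006 and 998). Both kept the groups apart but in opposite directions, the second by less than the SE (limma adjusted p = 0.616 and 0.969). POLA1, the catalytic subunit of the polymerase that starts each strand, read 384 and 417 against 413 and 383 (0.0096). POLE2, a subunit of the leading strand polymerase, read 698 and 628 against 737 and 683 (-0.10). The groups overlapped in both.

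All 6 tested probe sets of the nucleotide genes had negative values, against 53.5% of all tested, with a median of -0.079, and none passed. In 2 of the 6 both MED1 samples were lower (33.3%, against 22.6% of all tested), and in 4 the groups overlapped. The 6 stand for 4 genes, and probe sets of the same gene are not independent. With arrays centred 1 of the 6, of RRM1, turned positive, where 41.5% of all tested were negative. TK1, the thymidine kinase of the salvage route, read 1253 and 1477 with MED1 and 1637 and 1713 with the empty vector. Both MED1 samples lay below both empty vector samples, a level 1.23-fold lower (-0.30 ± 0.11; limma adjusted p = 0.445). Thymidylate synthase, TYMS, which makes thymidylate afresh, read 5410.2 and 6286 against 6634 and 6370.2 (-0.16 ± 0.11, adjusted p = 0.682), also with no overlap; MED1 replicate 1 was the lowest. A second TYMS probe set was dim (8.04 and 14.8 against 2.28 and 1.79) and was not tested. Ribonucleotide reductase makes the deoxynucleotides, and its subunits gave -0.032 and -0.054 for RRM1 and -0.063 and -0.095 for RRM2. The brighter RRM2 probe set read 7136 and 7887 against 7726 and 7953.

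Of the chromatin genes, CHAF1A, the large subunit of the chromatin assembly factor that puts histones on new DNA, read 425 and 490.5 with MED1 and 511 and 585 with the empty vector (-0.25 ± 0.12; limma adjusted p = 0.584). A second probe set gave -0.22 ± 0.15 (175 and 203 against 223 and 221), with the groups apart as in the first. The third, whose suffix _x_at marks probes that may match further transcripts, gave 0.058 ± 0.13 with overlap (614 and 639 against 532 and 679). The middle subunit CHAF1B read 252 and 299 against 318 and 274 (-0.10). SLBP, which binds the stem-loop of histone messages and is needed for their use in S phase, read 3669.9 and 3458 against 3582 and 3208 (0.071 ± 0.10, adjusted p = 0.868). The groups overlapped in both.

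The G1/S regulators were the 1 function whose median was positive, at 0.10 over 10 tested probe sets. With arrays centred, the medians of origin firing and fork synthesis were positive too, as was that of all tested (0.036). With quantile normalization, that of origin firing was also positive. Of the 10, 4 had both MED1 samples higher, where 17.2% of all tested did, and 0 both lower, where 22.6% did. CCNE1, cyclin E1, which drives entry into S phase with CDK2, read 613 and 566 with MED1 and 454 and 509.9 with the empty vector. Both MED1 samples lay above, a level 1.22-fold higher (0.28 ± 0.11, interval 0.026 to 0.54; limma adjusted p = 0.487). CCND1, cyclin D1, which starts the inactivation of RB, gave 0.17 ± 0.094 on one probe set (3214 and 2990.0 against 2842 and 2679), with the groups apart, and 0.041 ± 0.094 on the other (1764 and 1615 against 1658 and 1623), with overlap. CDC25A, the phosphatase that activates CDK2, gave 0.29 ± 0.19 (426 and 518 against 304 and 475) and 0.24 ± 0.21 (72.5 and 72.6 against 60.003 and 57.5). Empty vector replicate 1 was far below the other 3 samples on the first of these, and without it the value was -0.015.

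CCNE2 had probe sets of opposite sign: -0.094 ± 0.10 (1429.6 and 1314 against 1556 and 1378) with overlap, and 0.16 ± 0.18 (117 and 113 against 106 and 96.3) without it (limma adjusted p = 0.826 and 0.833). CCND3, another D-type cyclin, read 733 and 616 against 627 and 755 (-0.034). E2F1, the transcription factor of this switch and itself an E2F target, gave -0.33 ± 0.21 (94.5 and 131 against 126 and 165) and -0.28 ± 0.21 (121 and 190.0 against 171 and 208). On both its probe sets MED1 replicate 1 was the lowest and empty vector replicate 2 the highest, with the other samples between, so the groups overlapped. The intervals of E2F1 reached lower than those of any other tested member (-0.80 to 0.13 and -0.76 to 0.19). E2F2 read 25.3 and 22.4 against 11.0 and 33.0, under the filter. The E2F1 values were negative while CCNE1 and CDC25A values were positive, and none of the 3 genes passed.

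Of the 32 tested genes, 12 had more than 1 tested probe set. In 8 of them all values had one sign, and in 4 (MCM4, FEN1, CHAF1A and CCNE2) they did not. Values of one gene lay up to 0.31 apart on the log2 scale, in CHAF1A, a spread close to the largest difference between the groups.

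Other replication and G1/S genes, 75 tested genes outside the members, were compared in the same fit. None of their 108 tested probe sets passed in either direction, and 7 had an unadjusted p under 0.05 (6.48%, against 9.20% of all tested), 1 higher and 6 lower. Their median was -0.042 (0.0095 with arrays centred, where that of all tested was 0.036). Of the 108, 33 had both MED1 samples lower (30.6%, against 22.6% of all tested) and 14 higher (13.0%, against 17.2%). PRIM1, the catalytic subunit of primase, which lays the RNA primer for POLA1, read 1072 and 1096 with MED1 and 1436 and 1477 with the empty vector. Its groups were apart, at -0.42 ± 0.092 (limma adjusted p = 0.181). RECQL4, a helicase that takes part in origin firing, read 232 and 222 against 292 and 311 (-0.39 ± 0.13, adjusted p = 0.431). In the other direction, E2F6, a repressor of the E2F family, read 555 and 530.1 against 411 and 403 (0.40 ± 0.11, adjusted p = 0.29), and ORC5, an origin recognition subunit, 1749 and 2039.5 against 1619.7 and 1656 (0.20 ± 0.10, adjusted p = 0.59).

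The partners of RFC4 and the brakes of the cycle were looked at after those values were seen. Of 10 tested probe sets of the 5 replication factor C genes, 4 had both MED1 samples lower (22.6% of all tested) and 6 overlapped. The 4 include that of RFC4, from which this set was chosen. RFC3 gave -0.29 ± 0.10 (1669 and 1508 against 1841 and 2048) and 0.13, RFC1 -0.22 and 0.17, RFC2 -0.083 and 0.064, and RFC5 -0.14 to 0.075 over 3 probe sets. Each of these 4 genes thus had probe sets of both signs, RFC4 had 1 probe set only, and 0 of the 10 passed. Of the cyclin-dependent kinase inhibitors, CDKN1A, or p21, read 821 and 868 against 838 and 927 (-0.061), and CDKN1B, or p27, 2294 and 2101 against 2024 and 1905 (0.16; limma adjusted p = 0.632). The 18 tested probe sets of all listed G1/S brakes had a median of -0.066, and 0 passed. That list holds these inhibitors and also RB1, RBL1, RBL2, E2F5, E2F6 and other genes, so the median is not of the inhibitors alone. The kinase CDK2 gave 0.0054 and -0.061, and CDK4 -0.083.

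Genes of G2 and mitosis, which follow S phase in cycling cells, were fitted in the same way. Of 51 tested probe sets 0 passed and 3 had an unadjusted p under 0.05 (5.88%, against 9.20% of all tested). The median was -0.083, and -0.031 with arrays centred, where that of all tested was 0.036. The lowest p belonged to MKI67, the Ki-67 proliferation marker, at -0.50 ± 0.11 (400.5 and 459.7 against 613 and 611; limma adjusted p = 0.215). Its 3 other probe sets gave -0.12, 0.12 and 0.49, so the gene had no single direction. ESPL1, or separase, read 511 and 562 against 649.8 and 672 (-0.29 ± 0.11, adjusted p = 0.455). AURKA, a mitotic kinase, read higher on a dim probe set (53.8 and 50.9 against 26.6 and 33.0; 0.58 ± 0.25, adjusted p = 0.518), while its 2 bright ones gave 0.013 (1808 and 1858 against 1764 and 1872) and -0.15 (1738 and 1654 against 1699 and 2087). No difference between these genes and the members was tested.

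**Figure D4:**
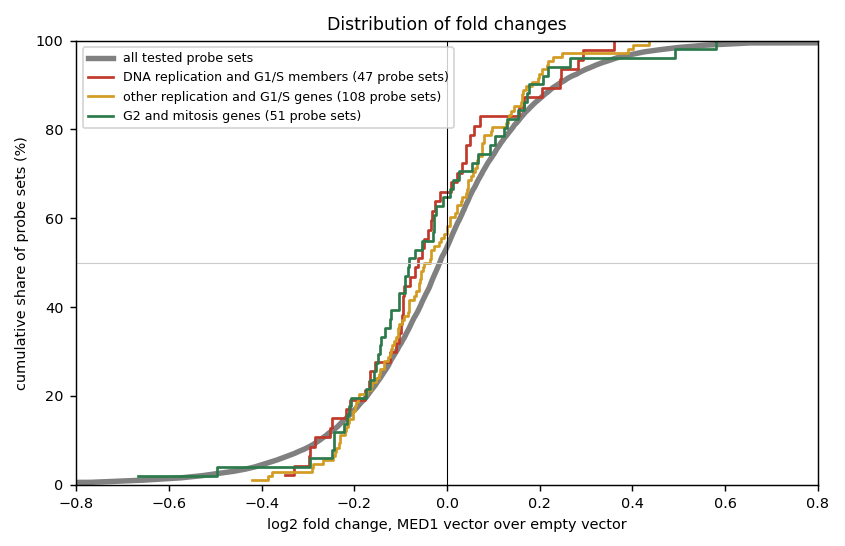
Cumulative share of probe sets (%) by log2 fold change, MED1 vector over empty vector, for all 13329 tested probe sets (grey) and for the members, other replication and G1/S genes, and G2 and mitosis genes. The medians are -0.016, -0.063, -0.042 and -0.083. The shares below 0 are 53.5%, 66.0%, 58.3% and 64.7%, in the same order.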

How the data were processed

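Expression arrays of LNCaP cells, 2 samples per vector, were used as deposited. The deposited values are linear intensities, which the authors computed with MAS5 per the submitters' processing notes; its version and settings are not given here. Groups came from the titles, because the empty vector samples carry a description that speaks of MED1. Of 22277 probe sets, 62 controls were left out; 19064 of the other 22215 name 1 gene in the platform annotation, and 19058 were matched to RefSeq (GRCh38.p14) for current symbols. Signals were taken as log2(value + 16), a scale that understates changes of weak genes. The 8886 probe sets in the lowest 40 percent by the mean of that value (below a signal of 31.0) were dropped, and 13329 tested. No detection calls were used, so low signals have no known background. MED1 was compared with empty vector by limma 3.58.1 in R 4.3.3 (lmFit, eBayes with an intensity trend), adjusted by Benjamini-Hochberg over all tested probe sets at 0.05. Of each probe set's variance, 7.30 prior degrees of freedom stand beside 2 residual ones. An exact two-sided permutation test of 2 arrays against 2 cannot go below 0.333, so none was used. The procedure was run on simulated data with normal noise and added changes of 1.5-fold or more. All fold changes of members were smaller, so the simulation does not show whether differences of their size would be found.

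The members and lists were chosen with earlier results of these data known. Genes given in full were MED1, the 2 members of lowest p in each function, members whose probe sets differ in sign, and the 2 of lowest p per direction in the other lists; further values are given as description. Alternatives were the pseudocount (1, 64), median centring, quantile normalization, no filter or one at 60 percent, eBayes made robust or run with no trend, a block for replicate number, probe sets averaged per gene, leaving out each array, and member probe sets with suffix _x_at or _s_at left out. Arrays have no read depth, and their number limits the precision. Plots were drawn with matplotlib 3.10.9.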

Additional observations from a re-analysis of the deposited data

How the results depend on the processing

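No member probe set passed under any setting but one. With the replicate number as a block (a replicate block), 2 of 47 passed, RFC4 (limma adjusted p = 0.0283) and PCNA (0.0498), beside 239 of all probe sets, 1 of the other replication and G1/S genes and 1 of G2 and mitosis. No label says that same-numbered samples belong together. Deviations from the group mean of MED1 replicate 1 and empty vector replicate 1 correlated at 0.12 over all tested probe sets. With only 2 pairs, that does not settle it. Over all probe sets the count of 39 was 0 with no filter (limma, with 0 members), 5 when eBayes had no variance trend, and between 25 and 216 on 3 arrays (leaving out MED1 replicates 1 and 2 gave 94 and 216, and empty vector replicates 1 and 2 gave 45 and 25). For G2 and mitosis it was 0 to 2, with 2 without MED1 replicate 2. The median of the members was -0.053 to -0.033 with an array left out (nearest 0 without empty vector replicate 1) and -0.011 with arrays centred, where that of all tested was 0.036. The count of 19 with groups apart was 12 of 32 with probe sets averaged per gene and 9 of 23 without suffixes _x_at or _s_at, as fewer were counted. Centring turned the sign of 6 uncalled values (0.026 for MCM3, 0.038 for MCM4, 0.0027 for MCM5, 0.010 for CDC45, 0.020 for RRM1, 0.018 for CCND3). Leaving out an array turned 21, none of them called: CCND1 (-0.022 to 0.10), CCND3 (-0.17 to 0.10), CDC25A (-0.015 to 0.60), CDC45 (-0.15 to 0.068), CHAF1A (-0.11 to 0.23), CHAF1B (-0.22 to 0.017), E2F1 (-0.58 to 0.0090), MCM10 (-0.0035 to 0.068), MCM2 (-0.14 to 0.0024), MCM3 (-0.10 to 0.048), MCM4 (-0.086 to 0.058 and -0.34 to 0.0044 and -0.053 to 0.13 and -0.19 to 0.031), MCM5 (-0.26 to 0.16), ORC1 (-0.22 to 0.016), POLA1 (-0.048 to 0.067), RRM1 (-0.16 to 0.053 and -0.086 to 0.022), RRM2 (-0.14 to 0.0088), SLBP (-0.0077 to 0.15). Beyond smaller counts, the cause was not tested. Dim members (CLSPN, E2F2) have no known background.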
